A study of Homo sapiens with 16 samples.

Results

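HEK293 cells that had received any plasmid were compared with HEK293 cells labelled parental, taken to have received none. The members are the 14 transfected libraries of the 16 sequenced, and the other 2 are the parental libraries. The transfected libraries fall into 7 groups of 2: the empty pcDNA3.0 expression vector (called empty vector) and pcDNA3.0 carrying 1 of 6 cloned transcripts of the long non-coding RNA gene LINC01016, labelled T1, T2, CU1, CU2, CU1ENC and CU1ENU. Membership followed the sample titles and used no measured value. HEK293 is a human cell line derived from embryonic kidney and transformed with adenovirus genes. The medium of all groups was Eagle's minimum essential medium with serum and antibiotics. For the transfected groups, 5 micrograms of plasmid were delivered with a Lipofectamine reagent in 60 mm plates and cells were collected 48 hours later. The titles call the other group parental and name no plasmid, and it was taken as untransfected on that basis. The same treatment text is attached to every library, and no mock transfection is named, so what the parental cells were exposed to is not given beyond the title. Plasmid DNA, lipid reagent and handling cannot be told apart. Replicate number 1 or 2 was given to each library of a group. Nothing in the labels states that replicates came from separate cultures. The p-values therefore cover only the spread among the libraries at hand, part of which may be technical.

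Deposited totals ran from 15040770 to 17255935 counts per library. LINC01016 had 0 counts in both parental libraries, 1 and 0 counts in the empty vector libraries and 40405 to 192244 counts in the 12 libraries of the cloned transcripts. LINC01016 and its overlapping antisense gene were then left out, because their level reflects the plasmid. Defining markers of the line were present in every library. The intermediate filament gene VIM was at 1251 and 1258 CPM (counts scaled to the deposited total) in parental libraries and at 1242 to 1487 in transfected ones, and KRT18 was at 153.6 and 217.5 against 256.2 to 297.6 CPM. In bulk samples, a change in the number of cells of a type and a change in RNA per cell cannot be told apart.

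As background, DNA and lipid complexes enter cells by endocytosis and have to leave the endosome for the plasmid to be expressed. Foreign DNA in the cytosol can be sensed by cGAS, which signals through STING, and double-stranded RNA by RIG-I-like receptors, which signal through MAVS. Both routes switch on interferons, and secreted interferon acts on its receptor to raise interferon-stimulated genes. Separately, stress kinases raise the immediate-early transcription factors of the AP-1 family, and kinases that phosphorylate the initiation factor eIF2 raise ATF4, which drives amino acid transport and tRNA charging. HEK293 cells are widely used for transfection, and their p53 protein is bound by the adenovirus E1B protein.

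Promoter sequences of genes from these pathways are shown here because the groups of genes described below are known for a short motif at which one class of factor binds. Each is a stretch of 100 bases upstream of the RefSeq transcription start on build GRCh38.p14. It is read 5′ to 3′ on the strand of the gene, with the motif in capitals. The genes shown were picked from called list members that hold the motif before the start, so they do not stand for their lists. The shares of whole lists with each motif are given further below. CHAC1 (chr15:40953221-40953320, plus strand) and ASNS (chr7:97872423-97872522, minus strand), which act in glutathione breakdown and asparagine synthesis, hold the C/EBP-ATF response element TGATGNAA bound by ATF4.

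CHAC1: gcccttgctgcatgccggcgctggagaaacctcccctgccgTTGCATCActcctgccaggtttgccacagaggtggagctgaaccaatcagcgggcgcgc
ASNS: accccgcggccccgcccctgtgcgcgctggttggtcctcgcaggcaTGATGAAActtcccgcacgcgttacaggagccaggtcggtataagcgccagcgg

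DUSP1 (chr5:172771267-172771366, minus strand), a phosphatase that switches off MAP kinases, holds the cAMP response element TGACGTCA. TNFAIP3 (chr6:137867159-137867258, plus strand), a feedback inhibitor of NF-kB, holds the NF-kB site GGGANTTCC. CHORDC1 (chr11:90223053-90223152, minus strand), a partner of HSP90, holds the heat shock element, TTC, GAA and TTC separated by 2 free bases each.

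DUSP1: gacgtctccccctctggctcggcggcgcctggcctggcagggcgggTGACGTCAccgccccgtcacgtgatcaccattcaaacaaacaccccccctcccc
TNFAIP3: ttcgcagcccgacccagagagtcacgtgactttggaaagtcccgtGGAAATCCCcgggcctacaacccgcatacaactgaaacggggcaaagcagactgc
CHORDC1: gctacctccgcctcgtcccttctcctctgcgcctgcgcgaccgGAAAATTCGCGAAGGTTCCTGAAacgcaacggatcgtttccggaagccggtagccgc

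IFI44 (chr1:78649689-78649788, plus strand) and IFIT3 (chr10:89327796-89327895, plus strand), an antiviral RNA-binding cofactor, hold the interferon-stimulated response element, GAAA repeated after 2 free bases. In IFIT3 it is present at more than 1 place.

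IFI44: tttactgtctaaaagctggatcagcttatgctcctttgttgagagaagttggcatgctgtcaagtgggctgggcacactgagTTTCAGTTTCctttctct
IFIT3: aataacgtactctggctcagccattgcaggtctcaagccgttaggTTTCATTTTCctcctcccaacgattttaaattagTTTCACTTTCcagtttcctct

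The transfected cells differed from parental cells across a large part of the transcriptome. With edgeR's quasi-likelihood test, the replicate number as a block and Benjamini-Hochberg adjustment, 4558 of 19300 tested genes were higher in transfected cells (23.6%) and 4516 were lower (23.4%) at an adjusted p under 0.05. Most of these differences were small: the median absolute log2 fold change was 0.43 among genes that rose and 0.40 among genes that fell, and 2935 and 3242 of them were under 1.5-fold. At least 2-fold changes were less even, with 896 genes higher (4.64%) and 393 lower (2.04%). At 4-fold or more, 270 genes were higher and 23 were lower. The median log2 fold change over all tested genes was -0.0015.

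The plot of fold change against level shows where these genes lie.

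**Figure D1:**
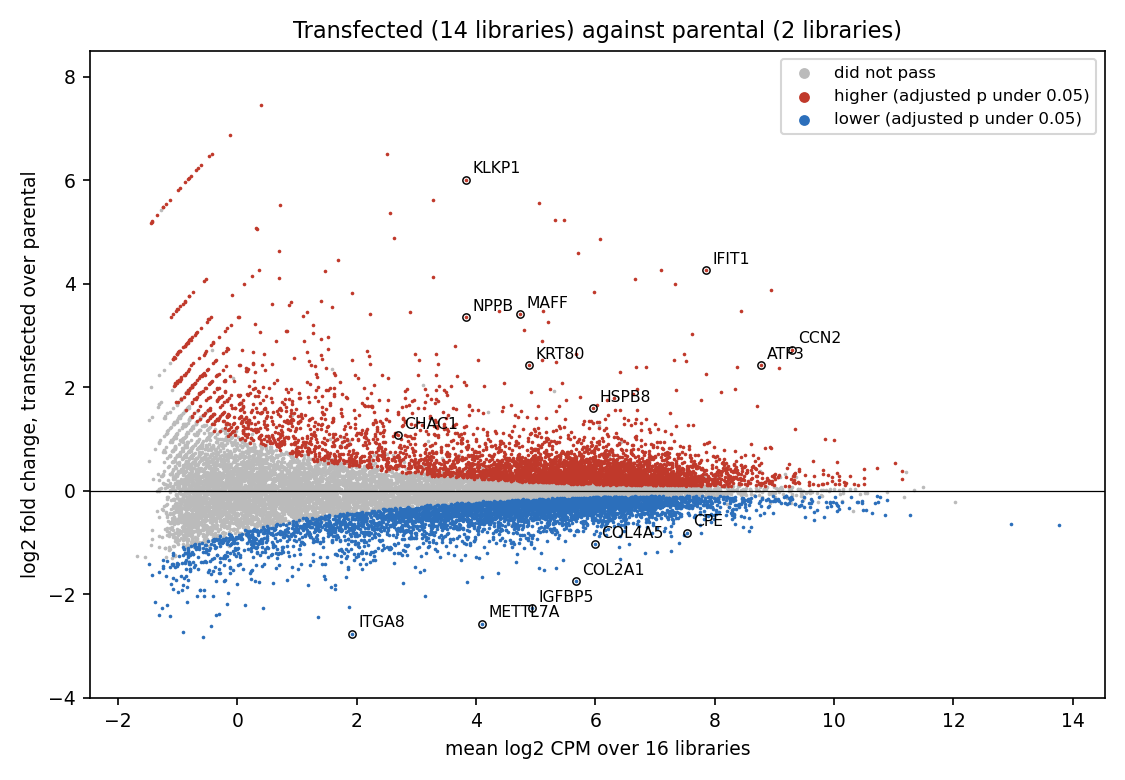
Log2 fold change of transfected over parental cells (y axis) against the mean log2 CPM over all 16 libraries (x axis), 1 point per tested gene. Red genes (4558) were higher and blue genes (4516) lower at an adjusted p under 0.05, grey genes did not pass, and the largest rises reach further from 0 than the largest falls.

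The 7 plasmid groups share the same parental libraries, and the genes were called over all of them, so agreement in sign between groups is largely set by the selection. All 14 transfected libraries lay above both parental libraries for 703 of the 896 and below both for 282 of the 393. Over all tested genes, 16.4% had all 14 libraries above and 15.4% had all 14 below. With the 2 empty vector libraries as the only transfected ones, 3738 of 18058 tested genes were higher and 3745 lower. Genes were thus called in both directions without a cloned transcript. With only 2 libraries per class and the block, the spread of each gene in this fit rests largely on shrinkage towards other genes.

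Each replicate number has its own parental library, which lets the shift be read in separate libraries. Within replicate 1 (7 libraries against 1), 3315 genes were higher (17.2%) and 2949 lower (15.3%). Within replicate 2, 3425 were higher (17.7%) and 3440 lower (17.8%). Of the 3315 genes higher within replicate 1, 2429 were also called higher within replicate 2, which is 73.3% of the first set and 70.9% of the second, and 97.5% had a positive fold change there. Of the 2949 genes lower within replicate 1, 2202 were called lower within replicate 2 (74.7% and 64% of the sets). Only 1 gene was called in opposite directions. Both sets of values come from 1 fit with a shared estimate of the spread.

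Shares of each library's counts also shifted. Cytosolic ribosomal protein genes took 6.88% and 6.66% of the counts in the parental libraries and 5.58% to 6.67% (median 5.93%) in transfected ones. The 100 most abundant genes took 16.7% and 15.3% against 13.9% to 14.9% in transfected libraries. The number of genes with a count was 26572 and 25529 in parental cells, and within each replicate number every transfected library had more, at 25772 to 27459. Each of these measures, and the share of replication-dependent histone genes, had p = 0.015625 in an exact two-sided permutation test of the parental label within replicate numbers (64 assignments, adjusted p = 0.019531 over 5 measures), which is the smallest p this design can give.

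The AP-1 family and ATF3, which act as dimers on target promoters within minutes to hours of stress or growth signals, were higher as a group. Of 12 tested members 11 rose and 0 fell, and the median log2 fold change of the 12 was 1.40. Within single transfected libraries the median difference from the parental library of the same replicate lay between 0.88 and 1.58, so the list was raised in all 14. ATF3 (chr1:212565334-212620777, plus strand), a stress-induced repressor, was at 100.7 and 79.2 CPM in parental cells (here and below scaled by TMM factors) and at 439, 465 and 612 CPM as the lowest, median and highest of the transfected libraries. The groups did not overlap, and the log2 fold change was 2.42 ± 0.14 (standard error, SE; edgeR adjusted p = 3.53e-09). MAFK, a small MAF protein that pairs with NRF2, was at 41.9 and 51.2 CPM in parental cells and at 131 to 249 CPM (median 173) after transfection, a log2 fold change of 1.94 ± 0.10 (edgeR adjusted p = 8.60e-11). MAFF, its close relative and the member with the lowest parental level of these 3, went from 2.86 and 2.72 CPM to 21.6 to 44.7 CPM (median 27.4), a log2 fold change of 3.41 ± 0.30. JUND, which many cells express without a stimulus, did not pass, at a log2 fold change of -0.06.

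Other immediate-early genes, induced without new protein synthesis, moved in the same direction in 23 of 28 tested members, 1 fell, and the median was 1.04. KLF4, a zinc-finger factor, was at 17.9 and 19.4 CPM in parental cells and at 35.7 to 60.2 CPM (median 44.2) in transfected cells. CSRNP1, a nuclear factor induced by AXIN1, was at 14.8 and 14.4 against 31.6 to 48.0 CPM. MYC, the growth regulator, was at 14.7 and 15.6 CPM and at 30.0 to 42.8 CPM, with a log2 fold change of 1.16 ± 0.10 (edgeR adjusted p = 5.06e-13). None of these 3 had overlapping groups. DUSP1, whose cAMP response element is printed above, rose from 74.3 and 87.3 CPM to 245 to 399 CPM (median 287), by 1.90 ± 0.10 on the log2 scale. CCN2, a secreted matricellular protein and target of YAP, was at 54.8 and 171 CPM in parental replicates 1 and 2 and at 455 to 978 CPM (median 647) in transfected cells. Its parental libraries differed from each other by more than those of the genes above, and its log2 fold change was 2.73 ± 0.17. The SE assumes the same spread in both classes, so it mostly reflects the transfected libraries and understates this parental difference. The same limit holds for other genes whose parental libraries stood apart, such as NPPB, KRT80 and COL2A1 below. IER5, a partner of the heat shock factor HSF1, was the member that fell, by 0.58 ± 0.06 on the log2 scale.

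The plot of single genes by library shows the pattern of these and later genes.

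**Figure D2:**
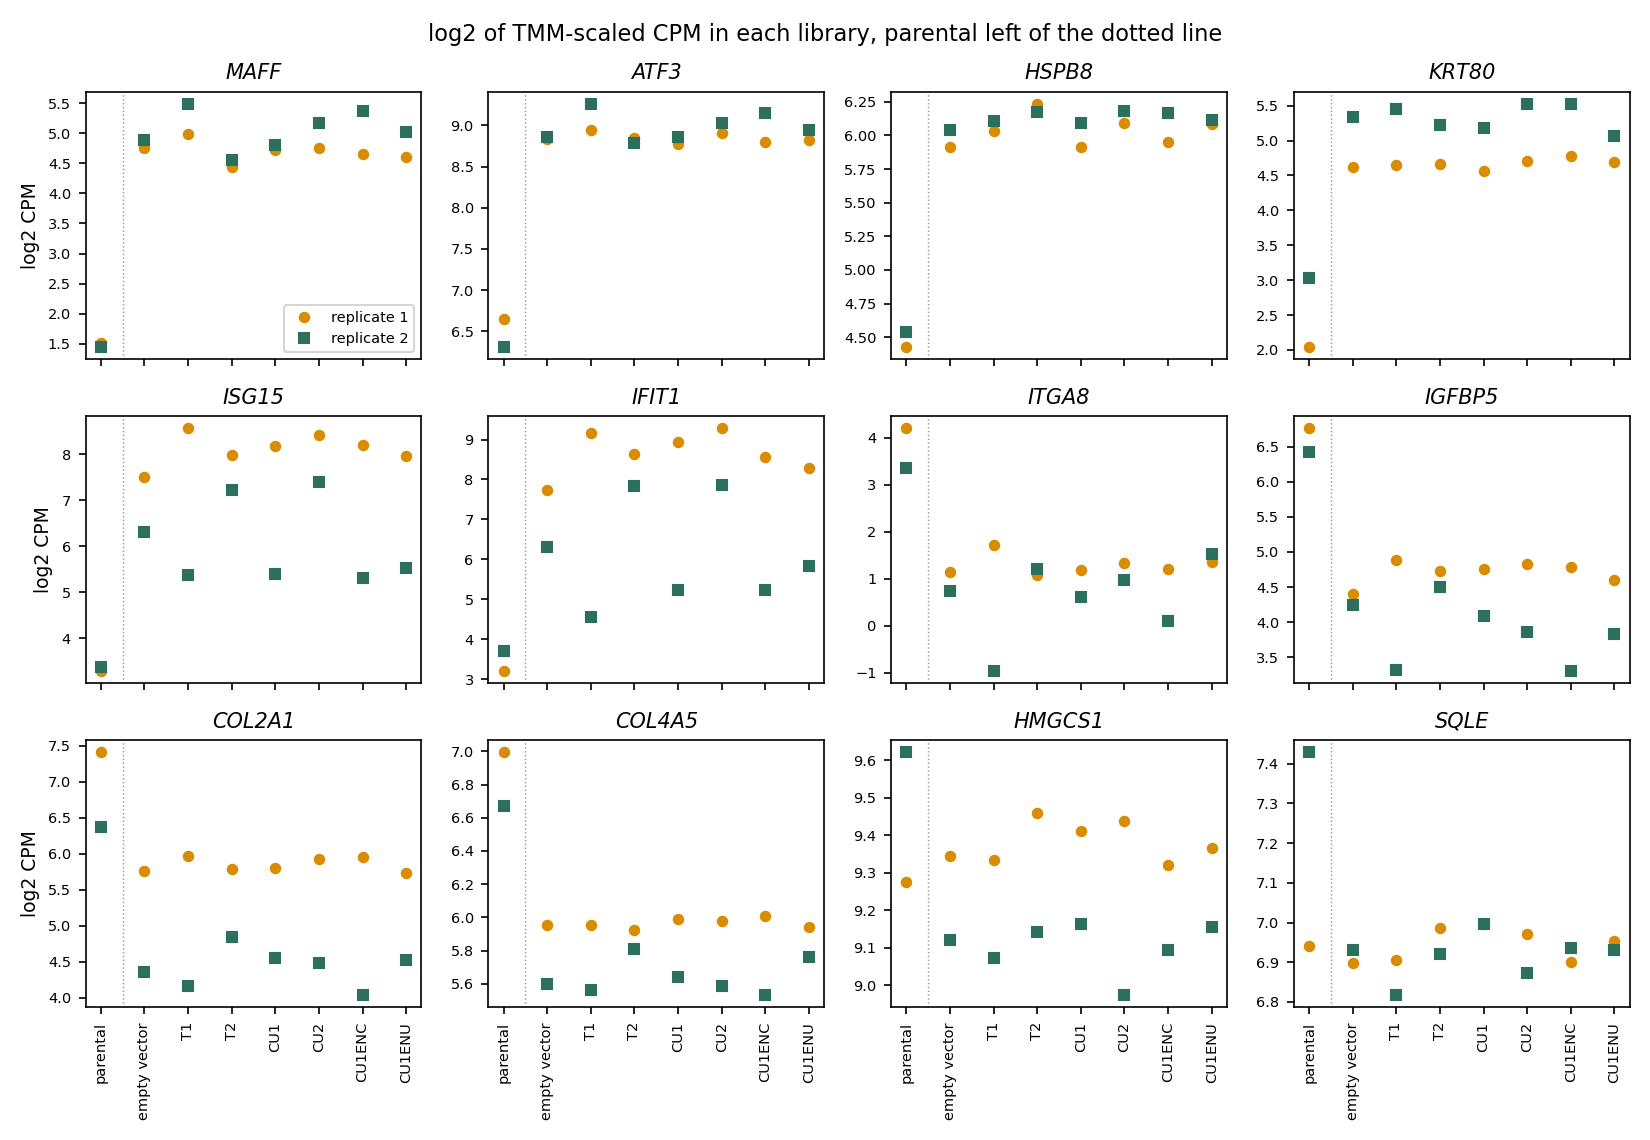
Log2 of TMM-scaled CPM (y axis) of 12 genes in each of the 16 libraries, by group (x axis) and replicate number (orange circles 1, green squares 2), 1 point per library. MAFF, ATF3, HSPB8 and KRT80 are higher and ITGA8, IGFBP5, COL2A1 and COL4A5 lower in all 14 transfected libraries. The naming rule required this of HSPB8, ITGA8, IGFBP5, COL2A1 and COL4A5. ISG15 and IFIT1 spread widely within replicate 2, and parental replicate 2 is the highest of the 16 libraries for HMGCS1 and SQLE.

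Genes of the integrated stress response, which tunes translation to amino acid supply, rose in 26 of 35 cases, fell in 3, and had a median of 0.54. DDIT3, which encodes the transcription factor CHOP, was at 12.3 and 11 CPM in parental cells and at 27.9 to 35.7 CPM (median 31.3) in transfected cells, with no overlap and a log2 fold change of 1.43 ± 0.09 (edgeR adjusted p = 1.73e-16). SLC3A2, the heavy chain of several amino acid exchangers, was at 88.9 and 92.0 CPM against 302 to 454 CPM (median 342). Its log2 fold change of 1.97 ± 0.08 was larger than those of the transporters SLC1A5 (0.65 ± 0.04) and SLC7A1 (0.71 ± 0.05). ATF4 itself was at 301 and 330 CPM and at 438 to 502 CPM, a log2 fold change of 0.54 ± 0.04. CHAC1 rose from 3.99 and 2.47 CPM to 5.47 to 7.76 CPM. ASNS had a low count in every library, at 1.79 and 1.23 CPM against 0.986 to 3.998 CPM (median 2.41), and the groups overlapped. It passed narrowly at 0.70 ± 0.29 (edgeR adjusted p = 0.0447). The pseudogene ASNSP1 could share reads with ASNS, so the ASNS count is uncertain. VLDLR, a lipoprotein receptor on the list, fell by 0.53 ± 0.06 on the log2 scale.

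Cytosolic aminoacyl-tRNA synthetases, which charge tRNAs and of which many are ATF4 targets, rose in 17 of 20 cases with a median of 0.33. The tyrosyl enzyme YARS1 was at 107 and 112 CPM in parental cells and at 183 to 224 CPM (median 197), and the cysteinyl enzyme CARS1 at 59.9 and 58.0 against 100 to 129 CPM (median 114). Their log2 fold changes were 0.87 ± 0.05 and 0.97 ± 0.06 (edgeR adjusted p = 4.94e-18 and 1.72e-17). The glutaminyl enzyme QARS1 fell, from 222 and 205 CPM to 146 to 162 CPM, without overlap.

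The unfolded protein response of the endoplasmic reticulum rose in 18 of 25 tested members and fell in 0, with a median of 0.37. XBP1, whose spliced form drives the response, was at 64.9 and 61.3 CPM in parental cells and at 101.1 to 122 CPM (median 119) in transfected cells, a log2 fold change of 0.87 ± 0.06. The chaperones HYOU1 and HSP90B1 rose by 0.55 ± 0.05 and 0.43 ± 0.05. HSPA5, the chaperone BiP and the member past 2-fold, went from 458 and 520 CPM to 788 to 1218 CPM, a log2 fold change of 1.00 ± 0.09.

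Heat shock genes rose in 18 of 24 tested members, fell in 0, and had a median of 0.28. HSPB8, a small heat shock protein that works with BAG3 to send misfolded proteins to autophagy, had the lowest p of all tested genes. The gene lies at chr12:119171555-119224855 on the plus strand of GRCh38. It was at 21.5 and 23.3 CPM in parental cells and at 60.2 to 75.2 CPM (median 68.2) in transfected cells, a log2 fold change of 1.598 ± 0.07 (edgeR adjusted p = 9.01e-21). BAG3 was at 39.3 and 45.8 CPM against 73.3 to 105 CPM (median 85.3), a log2 fold change of 1.04 ± 0.06. DNAJB1, a heat-inducible co-chaperone, was at 112 and 137 CPM against 113 to 140 CPM, with a log2 fold change of 0.02 ± 0.04, and HSPA1A, whose near-identical copy HSPA1B makes its counts uncertain, had -0.05 ± 0.16. Neither passed the test.

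NF-kB genes rose in 16 of 23 tested members, 1 fell, and the median was 0.84. With a stricter filter of 1 CPM, 12 of 18 tested members rose, 1 fell, and the median was 0.54. RELB, a subunit of the non-canonical branch, was at 3.93 and 3.21 CPM in parental cells and at 12.5 to 17.9 CPM (median 15.4) after transfection, a log2 fold change of 2.10 ± 0.14 (edgeR adjusted p = 2.19e-16). TNFAIP3, with the NF-kB site printed above, was at 9.05 and 6.97 CPM and at 18.5 to 26.9 CPM (median 23.9), and rose by 1.54 ± 0.11. Both were above parental in all 14 libraries. The inhibitor NFKBIB and the subunit NFKB2 rose by 0.96 ± 0.06 and 0.93 ± 0.08, and SOCS3, a feedback inhibitor of JAK-STAT signalling outside the list, by 1.91 ± 0.10 from 10.1 and 7.59 CPM. NFKBIZ, an atypical inhibitor, fell by 0.46 ± 0.15 with overlapping groups, a call lost without parental replicate 2 or the block.

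Interferon-stimulated genes had the highest median of the gene lists. Of 49 tested members 40 rose, 0 fell, and the median log2 fold change was 2.39. The 10 largest rises among the protein-coding genes that met the naming rule were XAF1, OAS2, IFI44, OAS1, IFI44L, RSAD2, DHX58, IFIT3, IFIT1 and OASL, all of them known interferon-stimulated genes. ISG15, a ubiquitin-like modifier, was at 9.70 and 10.4 CPM in parental cells. In transfected cells it was at 181 to 378 CPM in replicate 1 and at 39.6 to 167 CPM in replicate 2, so neither range overlapped the parental values. Its log2 fold change was 4.0 ± 0.82 (edgeR adjusted p = 0.00106). IFIT1, which binds the 5′ ends of viral RNA (chr10:89392546-89406487, plus strand), was at 9.17 and 13 CPM in parental cells, at 212 to 623 CPM in replicate 1 and at 23.4 to 231 CPM in replicate 2, a log2 fold change of 4.26 ± 1.17 (edgeR adjusted p = 0.00793).

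The interferon calls rested mostly on the comparison within replicate 1, where the transfected libraries stood further from their parental library than in replicate 2. The median of the list was 3.18 within replicate 1 and 1.67 within replicate 2, and all 49 members had the smaller fold change in replicate 2, although 0 passed the test of that difference singly in edgeR's interaction test (4 at an unadjusted p under 0.05, and 0 by DESeq2). Within replicate 1, 44 of 49 members were called, and within replicate 2 only 1, the exonuclease ISG20 (log2 fold change 0.98, edgeR adjusted p = 0.0181). Leaving out parental replicate 1 left 2 of the 49 called, ISG20 and IFNB1, with a median of 1.67, while leaving out parental replicate 2 left 44 called, with a median of 3.17. Without the replicate block 19 were called. The median difference per library ran from 2.15 to 2.95 in replicate 1 and, in replicate 2, from 0.17 for T1 and 0.29 for CU1 to 1.67 for T2 and 1.84 for CU2. With the empty vector libraries alone, 27 of 47 tested members rose. ISG15, IFIT1, IFIT3, IFI44L, OAS1, OAS2 and RSAD2 lost their calls there.

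The interferons themselves were near the counting limit. IFNB1, which encodes interferon beta, had 0 counts in both parental libraries and 152 counts over the 14 transfected ones, at 0.126 to 1.79 CPM. Against a floor of 3 counts over the parental group it was at least 7.54-fold higher. IFNL1, a lambda interferon, had 0 counts in parental libraries and 129 over the transfected ones, at least 6.40-fold higher by the same floor, although the CU1ENU replicate 2 library was also at 0. Set at these bounds, both genes still lay above the median of the list. XAF1 had 2 parental counts against 1425, a ratio of 106 with an exact 95% interval of 29.3 to 876 that covers counting error only.

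Of 12 tested sensors and adaptors of foreign nucleic acid, 4 rose and 3 fell, shares near the background, with a median of 0.17 that was -0.02 within replicate 2. CGAS, the cytosolic DNA sensor, was at 0.238 and 0.741 CPM in parental cells and at 1.80 to 4.46 CPM (median 2.63) in transfected cells, a log2 fold change of 2.54 ± 0.36 (edgeR adjusted p = 1.25e-07). Its adaptor STING1 fell by 0.54 ± 0.11, from 18.4 and 18.8 CPM to 9.23 to 15.6 CPM. MAVS, the adaptor of the RNA sensors, fell by 0.44 ± 0.04, from 198 and 193 CPM to 136 to 154 CPM.

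Genes of ribosome assembly rose in 29 of 32 cases and fell in 0, with a median of 0.53 and medians per library of 0.43 to 0.54. NOP58, a core protein of box C/D small nucleolar particles, was at 114 and 142 CPM in parental cells and at 203 to 293 CPM (median 233) in transfected cells, a log2 fold change of 0.91 ± 0.05 (edgeR adjusted p = 5.21e-18). UTP4, MYBBP1A and PES1, which act in processing of the ribosomal RNA precursor, rose by 0.89 ± 0.06, 0.84 ± 0.05 and 0.66 ± 0.05. The nucleolar helicase DDX21 and the initiation factor EIF5, among the 5 rises with the lowest p, each rose by 0.82 ± 0.04. The host genes of small nucleolar RNAs, many of whose spliced transcripts are degraded by nonsense-mediated decay, rose in 12 of 20 cases and fell in 2, with a median of 0.44. SNHG12 went from 12.9 and 8.27 CPM to 34.9 to 46.9 CPM (median 41.5), a log2 fold change of 1.96 ± 0.14, and SNHG15 from 30.8 and 28.3 CPM to 75.1 to 97.4 CPM, 1.56 ± 0.08.

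Ribosomal protein genes moved the other way. Of 78 tested, 35 fell and 3 rose, with a median of -0.14, and 0 reached 2-fold. RPS4X was at 3403 and 3157 CPM in parental cells and at 2126 to 2693 CPM (median 2380), and RPL7A at 1926 and 2194 against 1435 to 1666 CPM, both without overlap. Their log2 fold changes were -0.47 ± 0.05 and -0.43 ± 0.04 (edgeR adjusted p = 2.94e-10 and 2.74e-10). Many of these genes have processed pseudogenes, which makes their counts uncertain.

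The plot of the gene lists sets these counts beside the background.

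**Figure D3:**
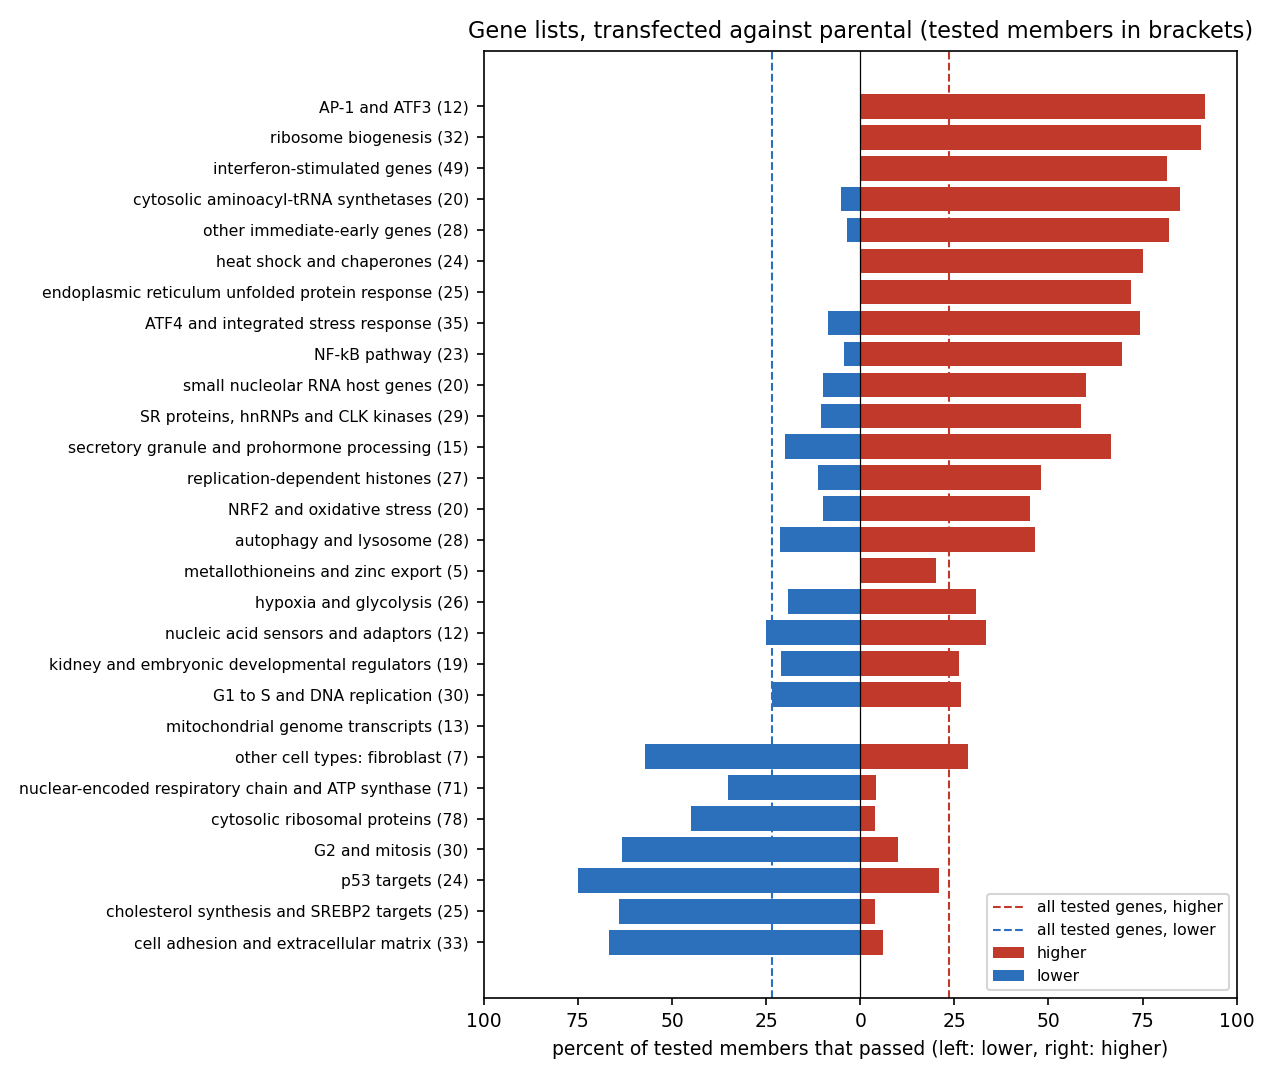
Percent of tested members of each gene list that were higher (red, to the right) or lower (blue, to the left) in transfected cells at an adjusted p under 0.05, with the number of tested members in brackets; dashed lines mark all tested genes (23.6% and 23.4%). Bars to the right are longest for AP-1 (91.7%) and ribosome biogenesis (90.6%), and bars to the left for p53 targets (75%), adhesion (66.7%) and cholesterol genes (64%).

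Genes of cell adhesion and the extracellular matrix fell in 22 of 33 tested members and rose in 2, with a median of -0.31, and 6 fell at least 2-fold. COL4A5 (chrX:108439838-108697545, plus strand), a basement membrane collagen, had the lowest p of all falls, at 128 and 102 CPM in parental cells and at 46.2 to 64.4 CPM (median 58.3) in transfected cells. Its log2 fold change was -1.03 ± 0.05 (edgeR adjusted p = 9.32e-20). COL21A1 went from 29.8 and 20.5 CPM to 3.06 to 8.65 CPM (median 6.65), and the guidance receptor SEMA6A from 58.4 and 43.6 CPM to 16.2 to 27.1 CPM, -2.03 ± 0.14 and -1.22 ± 0.07 on the log2 scale. In all 14 libraries these 3 genes lay below both parental libraries, which the naming rule required of COL4A5 and COL21A1. FN1, fibronectin, rose by 0.21 ± 0.04, and lost the call without parental replicate 1.

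The largest falls under the naming rule were ITGA8, METTL7A, ADGRF5, IGFBP5, COL3A1, COL21A1, QPRT, DGKK, SEMA5A and COL2A1. ITGA8 (chr10:15513954-15719922, minus strand), an integrin chain of the developing kidney, was at 18.5 and 10.2 CPM in parental cells and at 0.509, 2.25 and 3.30 CPM as the lowest, median and highest transfected libraries. It fell by 2.76 ± 0.20 on the log2 scale (edgeR adjusted p = 1.97e-12), and by 2.34 to 3.09 in the 7 groups. METTL7A, a membrane-bound methyltransferase, fell by 2.57 ± 0.15 from 75.5 and 45.2 CPM. IGFBP5, which binds insulin-like growth factors, was at 109 and 86.2 CPM against 9.83 to 29.5 CPM (median 21.8), and fell by 2.27 ± 0.18. COL2A1, the cartilage collagen, was at 170 and 83.2 CPM against 16.4 to 62.8 CPM (median 41.1), and fell by 1.74 ± 0.12. FREM2, SMOC1 and SEMA5A, all secreted or membrane proteins of the matrix and of axon guidance, fell by 1.66 ± 0.08, 1.58 ± 0.09 and 1.78 ± 0.19. The imprinted retrotransposon-derived gene PEG10 fell by 0.81 ± 0.04, from 364 and 338 CPM to 167 to 216 CPM.

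Targets of p53 fell in 18 of 24 cases and rose in 5, with a median of -0.38. Medians per library lay between -0.44 and -0.26, so all 14 were below 0. TP53INP1, a p53 cofactor, was at 71.8 and 61.8 CPM in parental cells and at 22.0 to 35.7 CPM (median 29.6) in transfected cells, a log2 fold change of -1.21 ± 0.07 (edgeR adjusted p = 2.50e-16). SESN1, a stress-induced inhibitor of mTORC1, was at 115 and 97.1 against 52.6 to 83.0 CPM. CDKN1A, the cell cycle inhibitor p21, was at 460 and 341 CPM in parental replicates 1 and 2 and at 259 to 345 CPM in transfected cells, so its pooled ranges overlapped, and its log2 fold change was -0.47 within replicate 1 and -0.37 within replicate 2. The members that rose include GADD45A, a growth arrest gene that stress also induces without p53, at 79.5 and 60.7 against 203 to 305 CPM (1.75 ± 0.15), AEN and BBC3. Without the replicate block 8 members were called lower.

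Genes of cholesterol synthesis and uptake, driven by SREBP2, fell in 16 of 25 cases and rose in 1, with a median of -0.25. This fall depended on the parental library of replicate 2. The median was -0.05 within replicate 1 and -0.47 within replicate 2, and leaving out parental replicate 2 left 6 members called lower. INSIG1, a sterol-regulated retention protein of the endoplasmic reticulum, was at 149 and 236 CPM in parental replicates 1 and 2, at 131 to 156 CPM in transfected replicate 1 and at 83.3 to 123 CPM in transfected replicate 2. TM7SF2, a sterol reductase, fell in both, from 56.1 and 50.1 CPM to 18.5 to 32.7 CPM, by 0.88 within replicate 1 and 1.10 within replicate 2.

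The difference between the replicate numbers was tested directly for every gene. At an adjusted p under 0.05 in edgeR's interaction test, 8 of 19300 genes (0.0415%) shifted differently, 3 with the larger value in replicate 2 (0.0155%) and 5 with the smaller (0.0259%), and 1375 had an unadjusted p under 0.05 where 965 are expected by chance. Of the 8, 3 belong to the cholesterol list: HMGCS1, IDI1 and SQLE, which act early, midway and late in the pathway. HMGCS1 was at 620 and 788 CPM in parental replicates 1 and 2, at 640 to 704 CPM in transfected replicate 1 and at 503 to 573 CPM in transfected replicate 2. Its log2 fold change was 0.11 in replicate 1 and -0.52 in replicate 2, a difference of -0.63 ± 0.08 (edgeR adjusted p = 9.14e-05). Of the 25 cholesterol genes, 15 had an unadjusted p under 0.05 in this test and 8 passed by DESeq2.

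**Figure D4:**
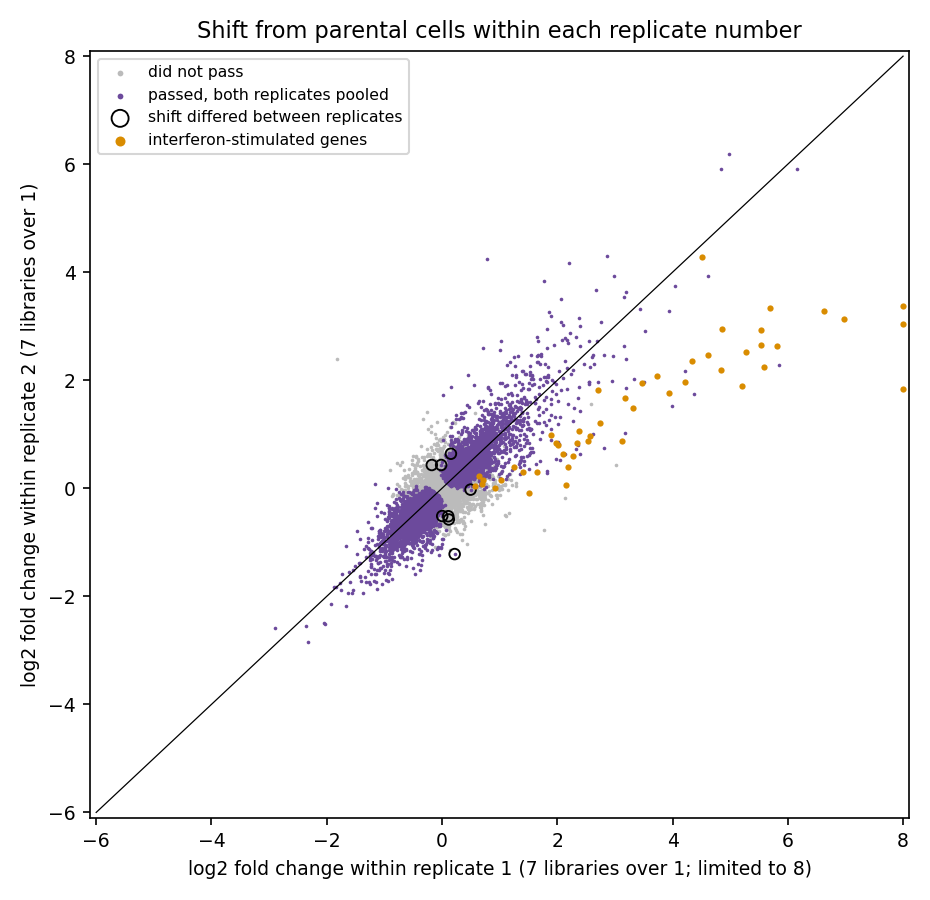
Log2 fold change of transfected over parental cells within replicate 2 (y axis) against that within replicate 1 (x axis), 1 point per gene with a mean log2 CPM of at least 1; the line marks equality, and values over 8 on the x axis are drawn at 8. Purple genes passed in the pooled test, orange marks interferon-stimulated genes, which lie below the line, and circles mark the 8 genes whose shift differed between the replicates.

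Mitotic genes fell in 19 of 30 cases and rose in 3, with a median of -0.15, and leaving out parental replicate 2 left 12 called lower. TOP2A, the topoisomerase of dividing cells, was at 1133 and 1129 CPM in parental cells and at 715 to 825 CPM (median 759), a log2 fold change of -0.56 ± 0.04 (edgeR adjusted p = 3.55e-15). ASPM and CENPF, of the spindle and the kinetochore, fell by 0.51 ± 0.04 and 0.40 ± 0.04, while CDC20, an activator of the anaphase-promoting complex, rose by 0.35 ± 0.05, a call lost without the block. Genes of G1 to S and DNA replication were divided, with 8 higher and 7 lower of 30, shares near the background, and RRM2, a subunit of ribonucleotide reductase, fell by 0.47 ± 0.04. Replication-dependent histone genes rose in 13 of 27 tested members and fell in 3, with a median of 0.28, and without parental replicate 2 the rises numbered 8, while without parental replicate 1 the median was 0.12. With all libraries, 48.1% of the histone genes were higher and 11.1% lower, against 23.6% and 23.4% of all tested genes. Histone messages lack poly(A) tails, and their share of all counts was only 0.0483% and 0.0418% in parental libraries.

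Nuclear-encoded subunits of the respiratory chain and ATP synthase fell in 25 of 71 cases and rose in 3, with a median of -0.09, and leaving out parental replicate 2 left 8 lower. With all libraries, 35.2% were lower and 4.23% higher, against 23.4% and 23.6% of all tested genes. SDHB, an iron-sulfur subunit of complex II, rose by 0.42 ± 0.05, while its partner SDHC fell by 0.32 ± 0.05. Of the 13 protein genes of the mitochondrial genome 0 passed the pooled test in edgeR. In that test 0 had an unadjusted p under 0.05, and 0 passed by DESeq2. The interaction test gave 12 of the 13 with an unadjusted p under 0.05 in edgeR. After adjustment 0 passed it in edgeR, and 3 passed by DESeq2. Parental replicates 1 and 2 stood apart in them: they took 2.11% and 1.01% of all counts, the transfected libraries 1.09% to 1.89% (exact permutation p = 0.25), and the median log2 fold change was -0.43 within replicate 1 and 0.41 within replicate 2.

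Genes of splicing regulation, the SR proteins, hnRNPs and CLK kinases, rose in 17 of 29 cases (58.6%) and fell in 3 (10.3%). Their median was 0.13, and the shares of all tested genes were 23.6% and 23.4%. SRSF7 was at 190 and 175 CPM against 247 to 298 CPM, a log2 fold change of 0.57 ± 0.05. Genes of secretory granules and prohormones rose in 10 of 15 tested members and fell in 3, with a median of 0.87. NPPB, the natriuretic peptide precursor, was at 0.774 and 2.35 CPM in parental cells and at 7.29 to 30.6 CPM (median 14.3) in transfected cells, a log2 fold change of 3.35 ± 0.23 (edgeR adjusted p = 1.85e-12). EDN1, endothelin, was at 0.952 and 3.09 against 7.07 to 22.4 CPM. The carboxypeptidase CPE, which trims prohormones, fell from 288 and 305 CPM to 152 to 188 CPM. KRT80, a keratin outside the lists, rose from 4.11 and 8.21 CPM to 23.7 to 45.9 CPM (median 30.5), by 2.43 ± 0.12.

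Among the remaining lists, NRF2 and oxidative stress genes had 9 higher (45%) and 2 lower (10%) of 20, with a median of 0.09. SLC7A11, the cystine importer, rose by 0.97 ± 0.09, whereas NQO1, a standard NRF2 target, was at 2.44 and 2.41 CPM against 1.51 to 3.27 CPM and did not pass. Autophagy and lysosome genes had 13 higher (46.4%) and 6 lower (21.4%, near the background) of 28. Their median was 0.14, and 0.11 without parental replicate 1. TFE3 and TFEB, transcription factors of lysosome genes, rose by 0.72 ± 0.05 and 1.06 ± 0.13, while the lysosomal hydrolases HEXA and CTSB fell by 0.35 ± 0.06 and 0.31 ± 0.06. Hypoxia and glycolysis genes had 8 higher (30.8%) and 5 lower (19.2%) of 26, near the 23.6% and 23.4% of all tested genes. Their median was 0.08, and 0.14 without parental replicate 2. Among them ADM, a vasodilator peptide, rose by 1.17 ± 0.09 and GAPDH fell by 0.36 ± 0.04. Regulators of kidney and embryonic development had 5 higher and 4 lower of 19, near the background. Of 5 tested metallothionein and zinc export genes 1 rose (20%, near the background).

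**Figure D5:**
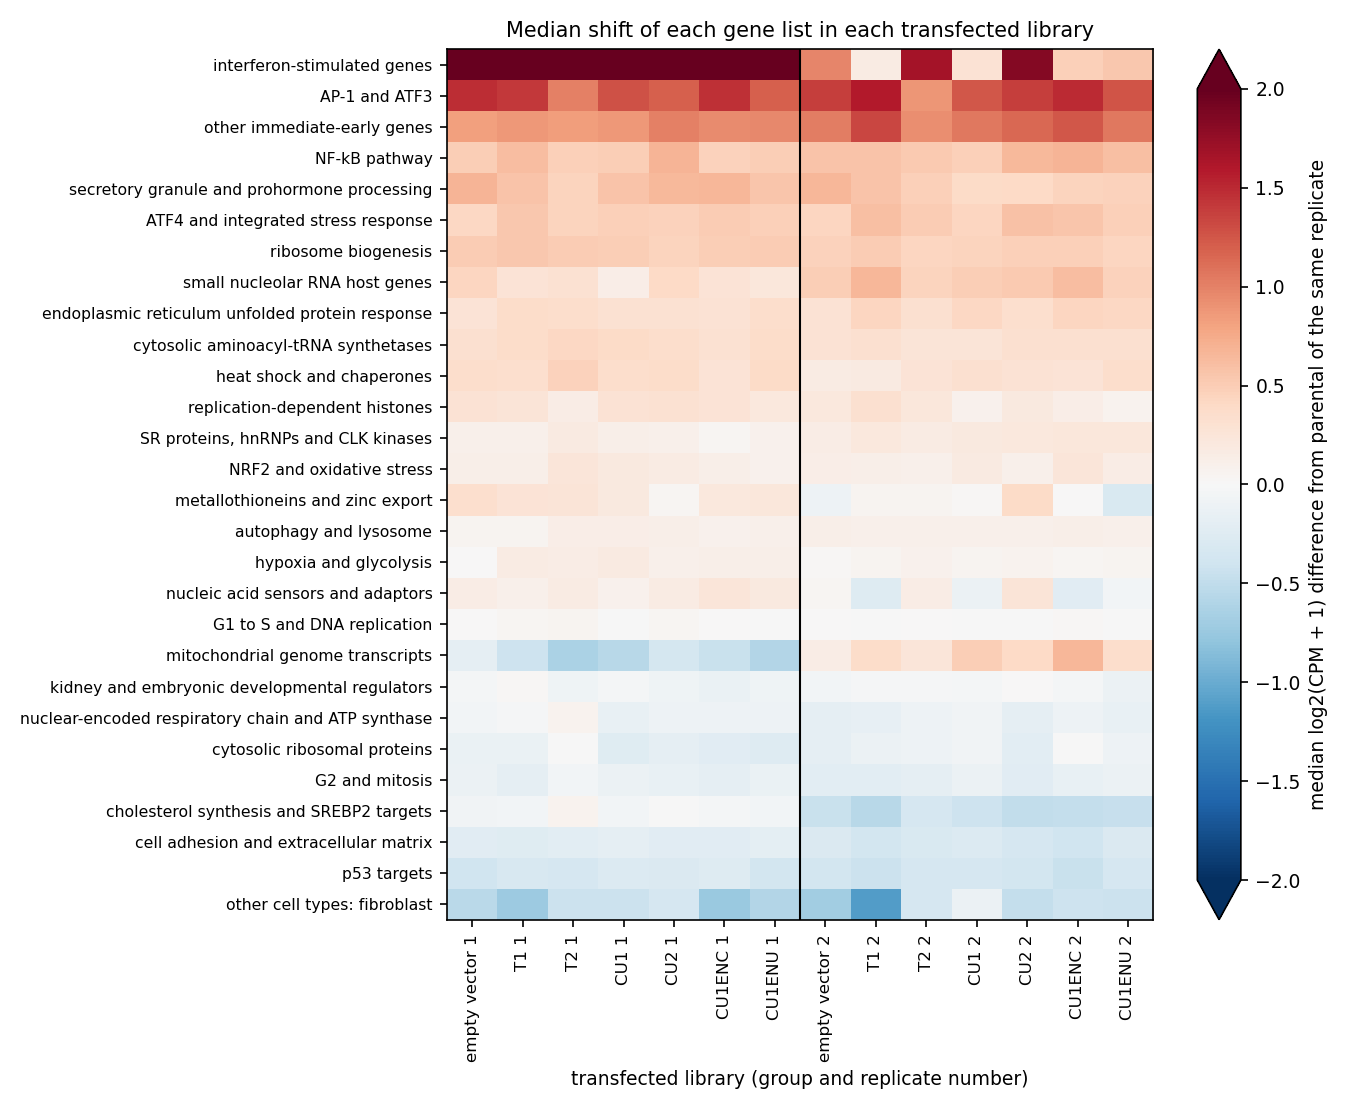
Median log2(CPM + 1) difference of each gene list (rows) between each transfected library and the parental library of the same replicate number (columns, replicate 1 left of the line and replicate 2 right), with colours limited to -2 and 2. The AP-1 row is red in all 14 columns, the interferon row is darker in replicate 1, and the cholesterol row is near 0 in replicate 1 and blue in replicate 2.

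Markers of other cell types were measured in the same libraries. The 10 fibroblast markers summed to 62.2 and 65.4 CPM in parental and 46.2 to 58.7 CPM in transfected libraries. Of 7 tested, COL3A1, LUM, POSTN and PDGFRA fell and FAP and COL1A1 rose, and FAP, with 0 parental counts, was at least 3.77-fold higher against the floor of 3 counts. FAP and PDGFRA lost the call without parental replicate 1, and COL1A1 lost it without either parental library or without the block. The 10 leukocyte markers summed to 2.58 and 2.69 against 4.15 to 6.86 CPM, of which CD14 and ITGAM made up the rises (ITGAM not without parental replicate 2), with CD3E, HBB and HBA1 at 0 in parental libraries and PTPRC at no more than 0.123 CPM in any library. The 8 epithelial markers summed to 432 and 458 against 379 to 445 CPM, nearly all of it CDKN2A, and KRT5 and KRT14 were at or under 0.402 CPM. The 8 germ cell markers summed to 0.0598 and 0.369 against 0.375 to 1.14 CPM, with DAZL and TNP1 at 0 in all 16 libraries. The part of these levels in the gene lists above was not tested.

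Among genes that are not protein-coding in the RefSeq tables, KLKP1, a transcribed pseudogene of the kallikrein family, was at 0.179 and 0.309 CPM in parental cells and at 9.33 to 23.6 CPM (median 16.2) in transfected cells, a log2 fold change of 6.01 ± 0.35 (edgeR adjusted p = 4.37e-12). IRS3P and ASNSP1, the pseudogenes of IRS3 and of ASNS, rose by 5.62 ± 0.50 and 4.25 ± 0.49. ASNSP1 could share reads with ASNS, and how reads with several positions were treated is not given in the sources used here. The antisense genes FZD10-AS1 and DLX6-AS1 fell by 1.38 ± 0.17 and 1.03 ± 0.17.

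Transcript length and promoter motifs were described for the same genes. In the shortest quintile of tested genes by exonic bases, 15.6% were higher and 11.4% lower, and in the longest quintile (from 7783 bases) 21.5% were higher and 35.1% lower. Of the tested genes, 12912 matched a RefSeq promoter of 300 bases (250 before to 50 after the start, build GRCh38.p14), which was searched on both strands. The interferon-stimulated response element was present in 23 of 38 interferon-stimulated genes with a promoter (60.5%), in 8.06% of genes at least 2-fold higher, 4.35% of those at least 2-fold lower, 2.77% of all tested genes and 3.65% of all 27305 promoters. TGATGNAA was present in 4 of 29 genes of the integrated stress response (13.8%), in 3.34% of genes at least 2-fold higher, 1.74% of those lower, 1.72% of all tested genes and 3.67% of all promoters. TGACGTCA was present in only 1 of 20 other immediate-early genes with a promoter (5%), which was DUSP1. Its shares were 4.91% of genes at least 2-fold higher, 0.435% of those lower, 3.2% of all tested genes and 1.98% of all promoters. TGANTCA, the AP-1 site, was present in 1 of 9 genes of the AP-1 list with a promoter (11.1%). Its shares were 7.86% of genes at least 2-fold higher, 6.96% of those lower, 4.78% of all tested genes and 7.76% of all promoters. GGGANTTCC was present in 3 of 18 NF-kB genes (16.7%; 2.38% of tested genes and 1.86% of all promoters) and the heat shock element in 3 of 21 heat shock genes (14.3%; 0.341% of tested genes and 0.487% of all promoters). The sterol regulatory element TCACNCCAC was present in 1 of 18 cholesterol genes (5.56%; 1.12% of tested genes and 1.15% of all promoters). A match is a description of the sequence and not evidence of binding.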

How the data were processed

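RNA of 16 libraries of HEK293 cells was sequenced as stranded paired-end libraries, and per the labels only RNA with an integrity number above 9 was used. The values deposited by the authors are whole, not normalized counts for each gene. Per the file headers, featureCounts 2.0.1 counted read pairs with strand option 2 in exons of Ensembl release 101. Per the submitters' processing notes, HISAT2, DESeq2 and build GRCh38.p13 were used, with settings not given in the sources used here. Gene lengths in the deposited table served only to sort genes by exonic bases.

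Genes were tested with edgeR 4.0.16 (R 4.3.3): filterByExpr on the 2 classes (minimum count 10, minimum total 15), which kept 19300 of 60671 genes, TMM factors of 0.977 to 1.03, and glmQLFit with robust shrinkage on replicate plus transfection, with 13 residual degrees of freedom. The threshold was an adjusted p (Benjamini-Hochberg over all 19300) under 0.05. The SE was taken as the size of the log2 fold change over the root of F. The interaction fit left 12 residual degrees of freedom. CPM are TMM-scaled, without the LINC01016 locus, except for markers of the line and of other cell types, which are scaled by the deposited total. DESeq2 1.42.0 was an alternative.

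The numbers were used as a block because same-numbered libraries deviated together: over 28 pairs of the 8 groups, the correlation of deviations from the group mean ran from 0.332 to 0.816 (median 0.603). Replicates of a group differed by more than sampling noise (chi-square per degree of freedom 6.20 to 17.0). Intervals and floors cover counting error only.

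The comparison, the 31 gene lists and the alternatives were chosen with earlier results of these data known. Named genes are passing protein-coding genes with a mean log2 CPM of at least 1 and all 14 transfected libraries beyond both parental ones (10 largest rises and falls, 5 lowest p each way), up to 4 passing members of lowest p per list and direction, 4 non-coding genes each way, and 5 interaction genes of lowest p. Others, such as MAFF, JUND, DUSP1, CCN2, ATF4, CHAC1, ASNS, HSPA5, DNAJB1, HSPA1A, INSIG1, NQO1 and the genes of the interaction beyond 5, were added after their values were seen. The scripts were tested on simulated data.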

Additional observations from a re-analysis of the deposited data

Results flagged for a closer look

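The shift from parental cells differed between replicate 1 and replicate 2 by edgeR's interaction test in 8 genes. HMGCS1, IDI1 and SQLE, enzymes of cholesterol synthesis, differed by -0.63 ± 0.08, -0.69 ± 0.11 and -0.52 ± 0.09 on the log2 scale, replicate 2 minus replicate 1 (edgeR adjusted p = 9.14e-05, 0.00154 and 0.00315). IDI1 was at 161 and 236 CPM in parental replicates 1 and 2 and at 158 to 195 and 148 to 171 CPM in the transfected libraries of the same numbers. SQLE was at 123 and 172 CPM in parental cells and at 119 to 128 and 113 to 128 CPM. The transfected medians of replicates 1 and 2 were 659 and 557 CPM for HMGCS1, 178 and 157 for IDI1, and 124 and 122 for SQLE. Each median rests on 7 libraries and each parental value on 1, so their gaps are not alike.

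TNC, the matrix protein tenascin C, was at 98.7 and 142 CPM in parental replicates 1 and 2 and at 130 to 146 and 132 to 151 CPM in transfected ones, a difference of -0.52 ± 0.10 (edgeR adjusted p = 0.0139). CALHM5, a calcium homeostasis modulator family member, was at 6.61 and 12.6 CPM against 6.89 to 8.90 and 4.41 to 7.497 CPM, a difference of -1.44 ± 0.28 (edgeR adjusted p = 0.0223). ZIC2, a zinc-finger transcription factor, was at 62.7 and 56.2 CPM against 54.1 to 57.7 and 70.4 to 81.0 CPM, and SNRNP70, a protein of the U1 particle, at 410 and 328 against 386 to 429 and 425 to 464 CPM. They differed by 0.61 ± 0.10 and 0.45 ± 0.08 (edgeR adjusted p = 0.00303 and 0.0146). MTSS2, a membrane-bending protein, was at 97.5 and 85.5 CPM against 104 to 113 and 126 to 142 CPM, a difference of 0.49 ± 0.09 (edgeR adjusted p = 0.0175). With 1 parental library per replicate number, a difference of the parental libraries and a difference of the response cannot be told apart.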

How the results depend on the processing

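Without the replicate block, 3682 genes were higher and 3503 lower, 809 and 347 of them at least 2-fold, and 7169 of the 9074 calls were shared. DESeq2 with the block gave 4573 and 4229 and shared 8583. No gene called in the pooled test was called in the opposite direction under any alternative. Genes lower fell to 2949 within replicate 1. A stricter filter left 484 genes at least 2-fold higher and 258 lower, and no filter gave 632 lower, as fewer or more low genes were tested. The interaction called 49 genes with no filter and 28 by DESeq2. Leaving out 1 library at a time gave 3281 to 4650 genes higher, 2990 (without parental replicate 2) to 4657 lower, 722 to 918 and 310 to 462 at least 2-fold, and 8 to 14 interaction genes (13 and 14 without T2 replicate 1 and replicate 2).

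The shares of counts, transfected minus parental, ranged when 1 library was left out from -0.864 to -0.771 percentage points for ribosomal proteins, 0.00395 to 0.0106 for histones, -2.10 to -1.04 for the top 100 genes, -0.565 to 0.208 for the mitochondrial genome (0.208 without parental replicate 1, a reversal) and 527.4 to 602.4 for genes with a count. With a single parental library or the empty vector libraries alone (-0.855, 0.00552, -1.56 and 711), the smallest exact permutation p is 0.125 or 0.5, so these say nothing of stability. Without the replicate block the exact permutation p was 0.233 for histones (0.00726) and 0.292 for genes with a count (560.6).

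The log2 fold change of TNC reversed to -0.0244 within replicate 2 and ran from -0.0269 (without parental replicate 1) to 0.4925 when 1 library was left out. That of ZIC2 ran from -0.1806 (without parental replicate 2, a reversal) to 0.4291. That of SQLE ran from -0.5154 to 0.0008 (without parental replicate 2, a reversal), and was 0.0042 within replicate 1. Without parental replicate 2, kidney regulators had 2 rises in place of 5, and without parental replicate 1 they had 2 falls in place of 4. G1 to S genes had 5 rises without the block or with the empty vector alone. In the AP-1, unfolded protein response, heat shock, interferon and ribosome biogenesis lists DESeq2 also called 0 members lower, and at an unadjusted p under 0.05 in edgeR 1 of the unfolded protein response and 0 of the others were lower. Depth limits genes with few counts, such as the interferons.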
